A study of Mus musculus with 48 samples.

Results

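Gabra2, Gabra3, Gabra4, Gabra5, Gabrb1, Gabrb2 and Gabrd code for subunits of the GABA-A receptor, the chloride channel through which GABA inhibits most neurons of the cortex. These 7 genes were taken from the 48526 genes of a count table by their Ensembl identifiers and the symbols that GENCODE release M21 gives them. All 7 passed the filter on low counts in each fit described here. Another 12 subunit genes of the same receptor were counted, and they appear only beside the 7 where they differ.

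The counts come from the cerebral cortex of 12 male wild-type C57BL/6JRj mice without any treatment, 4 at 3 weeks (3w), 4 at 5 months (5m) and 4 at 18 months (18m). For the middle group the sample labels write 6 months, while the protocol and the study write 5, which is used here. Each mouse gave 4 libraries: total homogenate (TH) and synaptosomes (SYN, nerve endings with attached postsynaptic membrane, enriched on a sucrose gradient), each as input RNA and as the pellet of a sucrose cushion (SC), where ribosomes and the RNA on them collect. Each of the 12 groups of fraction and age therefore holds 4 mice, and the mice, numbered 187 to 198, are the replicates.

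The shallowest library held 1780267 gene reads and the deepest 18590040, and the lowest count of any of the 7 genes in a library was 82 reads, for Gabra5 in input_SYN. In SC_TH the median depth differed with age, at 4448523 reads for 3w, 8643431 for 5m and 12328632 for 18m. Levels are given as CPM, the reads of a gene relative to all gene reads of its library on a common scale set by TMM over the 48 libraries, and levels of different genes are compared only as CPM per kb of exon. Markers of cortical excitatory neurons (6 genes, among them Slc17a7, Tbr1 and Camk2a) were all detected in every library and summed to between 2750 and 3640 CPM in input_TH. Sums in input_TH were 303 to 591 CPM for 6 striatal and 122 to 178 CPM for 5 thalamic markers. These are sums of different genes and do not give shares of tissue.

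The GABA-A receptor is a pentamer built around alpha and beta subunits, which together form the site where GABA binds. The remaining position bears on where the receptor sits. Many receptors with a gamma subunit, though not all, are held at synapses. Those with the delta subunit stay outside them and carry tonic inhibition. The alpha subunit sets kinetics and drug sensitivity, and alpha subunits replace one another as the forebrain matures.

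The 7 genes lie on 5 chromosomes of GRCm38. Gabra2 (ENSMUSG00000000560, chr5:70957597-71095849, minus strand), Gabra4 (ENSMUSG00000029211, chr5:71569749-71658308, minus strand) and Gabrb1 (ENSMUSG00000029212, chr5:71658113-72149037, plus strand) are neighbours. Gabra3 (ENSMUSG00000031343) occupies chrX:72432681-72656848 on the minus strand and Gabra5 (ENSMUSG00000055078) occupies chr7:57407672-57510059 on the minus strand. Gabrb2 (ENSMUSG00000007653) lies at chr11:42419757-42629028 on the plus strand, and Gabrd (ENSMUSG00000029054) at chr4:155384980-155398112 on the minus strand. Gabra4 and Gabrb1 start head to head and share 46 exonic bases on opposite strands, 0.756% of the exons of Gabra4 and 0.332% of those of Gabrb1. Gabra5 shares 148 exonic bases, 4.98% of its exons, with the antisense gene Gm9962. Because the authors counted reads without regard to strand, reads from such shared bases cannot be assigned to one gene of a pair.

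The stretch upstream of Gabra4 is shown because it belongs to the pair with adjoining starts, whose levels per kb are compared below. It covers chr5:71658364-71658558 on the minus strand (GRCm38.p6, from the RefSeq promoter table), 195 bases that overlap no annotated exon, written 5′ to 3′ with matches to the GC box (GGGCGG or its reverse complement CCGCCC) in capitals.
Gabra4: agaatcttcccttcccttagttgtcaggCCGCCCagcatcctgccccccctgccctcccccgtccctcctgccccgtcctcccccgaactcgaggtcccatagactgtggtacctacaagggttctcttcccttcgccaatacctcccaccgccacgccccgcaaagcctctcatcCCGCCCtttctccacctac
It holds 2 GC boxes and is 63.6% G or C. A GC box was found in 35.7% of the 32851 promoter windows of 300 bases in the table and in 3 of the 10 windows of members (1 each of Gabra2, Gabra4 and Gabrb2). Gabrd is not among the windows used here.

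Gabrb2, which codes for a beta subunit of synaptic receptors, was the most abundant of the 7 per kb in every fraction. Its mean level over 12 libraries was 16.7 CPM per kb in input_TH (range 14.4 to 18.3), 28.4 in SC_TH (22.4 to 33.0), 69.9 in input_SYN (55.8 to 95.9) and 65.9 in SC_SYN (51.0 to 90.6). In each fraction its range did not overlap that of the next gene. Gabra2 was the least abundant in every fraction, at a mean of 5.99 CPM per kb in input_TH, 6.73 in SC_TH, 14.4 in input_SYN and 12.6 in SC_SYN, and only in input_TH did its range (4.81 to 7.11) stay below that of the next gene. Gabrd, the delta subunit, was second in SC_TH (14.4 CPM per kb), input_SYN (33.1) and SC_SYN (40.8) and at rank 3 in input_TH (11.7), and its range overlapped that of its lower neighbour each time. Within single libraries Gabrd was above that neighbour in 12 of 12 libraries in SC_TH (Gabrb1), 11 of 12 in input_SYN and 12 of 12 in SC_SYN (Gabra3).

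**Figure D1:**
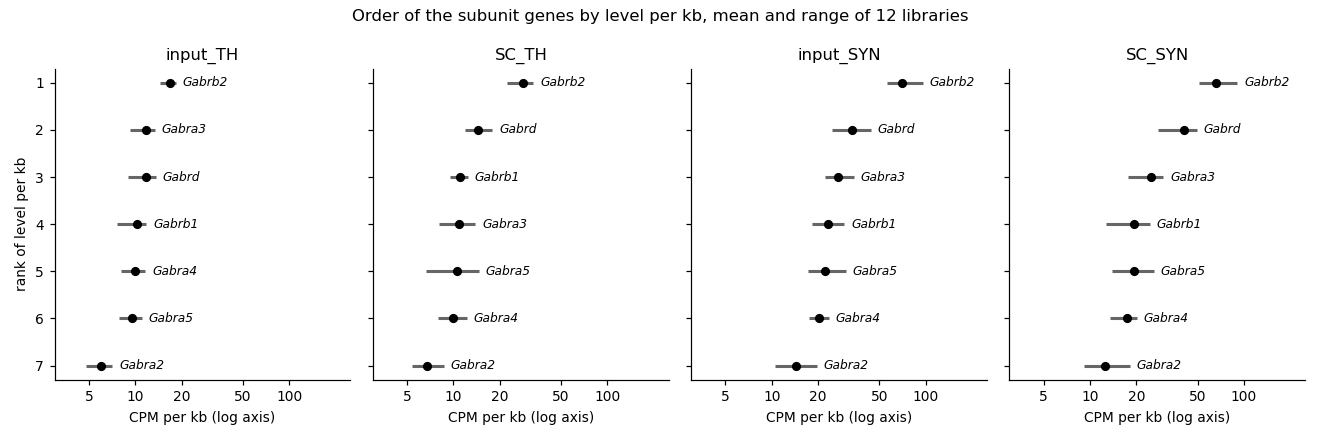
Level of the 7 subunit genes in CPM per kb of exon (log axis) by rank, 1 panel per fraction. Points are means and bars the range of 12 libraries; Gabrb2 stands clear of the others in each panel and Gabra2 is lowest, while the genes between them overlap.

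The ranges of the other 4 genes overlapped. In input_TH the mean levels were 11.8 CPM per kb for Gabra3, 10.3 for Gabrb1, 9.93 for Gabra4 and 9.52 for Gabra5. Within libraries, Gabra3 was above Gabra5 and above Gabrb1 in 12 of 12 in input_TH and in SC_SYN, under either measure of length, but above them in only 7 and 5 of 12 in SC_TH by all exons. Taking the longest transcript in place of all exons as length moved Gabra4 from rank 5 to rank 2 and Gabrb1 from rank 4 to rank 6 in input_TH, and left Gabrb2 first and Gabra2 last in all 4 fractions. By the longest transcript, Gabra4 was above Gabrb1 in 12 of 12 libraries in input_TH and SC_TH. It was above Gabrb1 in 11 of 12 in input_SYN and SC_SYN. With all exons as length, the head-to-head pair had similar levels: the ratio of Gabra4 to Gabrb1 per kb had a median of 0.982 in input_TH (0.828 to 1.10), 0.927 in SC_TH (0.716 to 1.14), 0.907 in input_SYN (0.643 to 1.08) and 0.898 in SC_SYN (0.605 to 1.26). The ratio of Gabrb2 to Gabrb1, the other beta gene of the list, differed more between fractions. Its median per kb was 1.63 in input_TH (1.47 to 1.99), 2.54 in SC_TH (2.27 to 3.10), 2.86 in input_SYN (2.61 to 3.92) and 3.30 in SC_SYN (2.97 to 4.29), so the input_TH libraries did not overlap those of any other fraction.

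**Figure D2:**
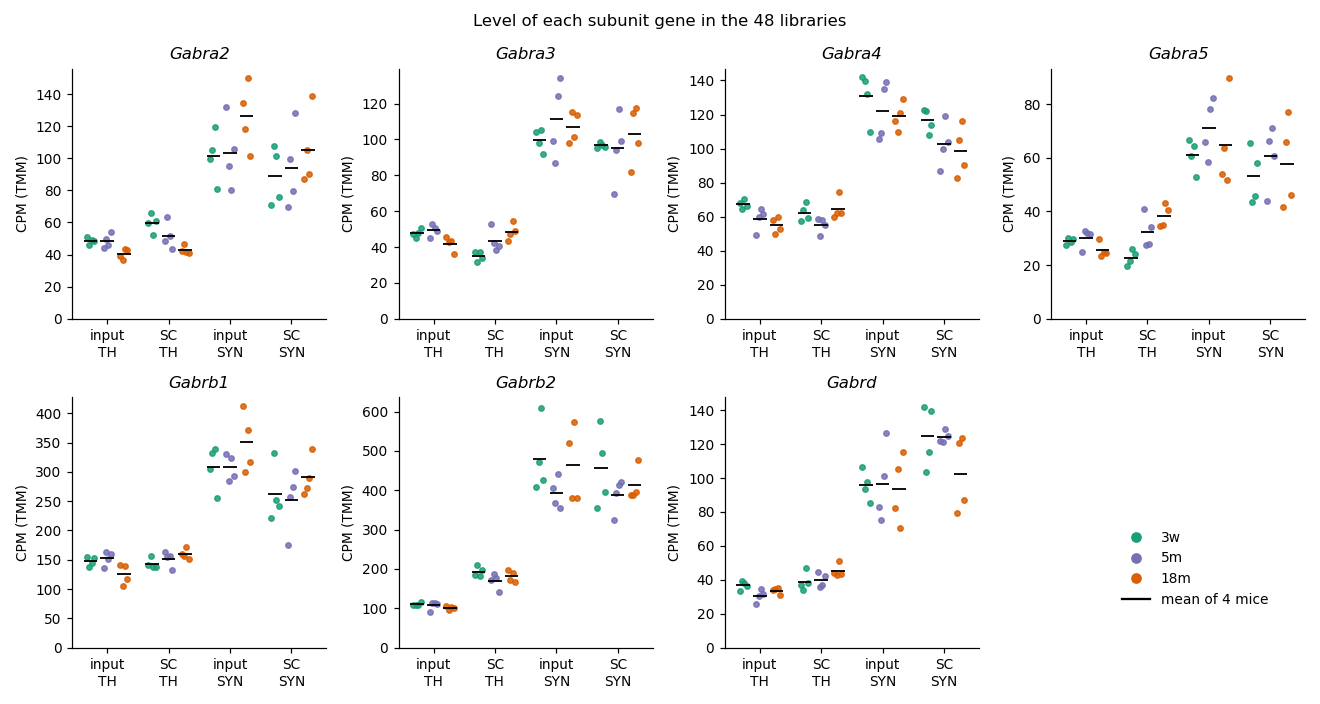
CPM of each subunit gene (TMM-scaled, axes from 0) in the 48 libraries, by fraction and age. Each point is 1 mouse and each bar the mean of 4; in all 7 panels the SYN means lie above the TH means, and in SC_TH the points for Gabra3 and Gabra5 are higher and those for Gabra2 lower at 18m than at 3w.

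The comparison of SYN with TH asked how the level of each subunit's RNA, relative to the other RNAs of its library, differed. It does not give the share of an RNA that lies in the synaptic fraction. All 7 genes were higher in SYN, both as input RNA and on the cushion. Gabrb2 was at a median of 108 CPM in the 12 input_TH libraries (91.4 to 116) and 417 CPM in input_SYN (355 to 610), and at 182 CPM in SC_TH (142 to 210) and 396 CPM in SC_SYN (324 to 576). Gabrd was at 34.2 CPM in input_TH (25.8 to 39.2) and 95.6 CPM in input_SYN (70.4 to 127), and at 42.4 CPM in SC_TH (33.8 to 51.0) and 122 CPM in SC_SYN (79.6 to 142). For neither gene did the TH libraries overlap the SYN libraries. In input RNA, Gabrb2 had the largest difference, 4.18-fold (log2 2.06 ± 0.07 SE), followed by Gabrd at 2.87-fold (1.52 ± 0.08), and the other 5 lay between 2.07-fold for Gabra4 and 2.41-fold for Gabra2 (highest adjusted p 2.1e-14). On the cushion, Gabrd had the largest difference in the mean of the 3 ages, 2.90-fold (log2 1.54 ± 0.08 SE), followed by Gabra3 at 2.39-fold (1.26 ± 0.07) and Gabrb2 at 2.37-fold (1.24 ± 0.07), with Gabra4 lowest at 1.79-fold (0.84 ± 0.06; highest adjusted p of the 7 1.06e-08). At single ages the order on the cushion was not the same. Gabra2 was 1.55-fold higher in SC_SYN at 3w, the smallest difference of the 7, 1.86-fold at 5m and 2.51-fold at 18m, the largest. Gabrd was 3.32-fold higher at 3w, 3.16-fold at 5m and 2.32-fold at 18m. Over all genes, 36.7% of 17860 tested in input RNA and 36.9% of 16630 tested on the cushion were called higher.

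Within single mice the differences varied. For Gabrb2 the log2 difference between input_SYN and input_TH lay between 1.67 and 2.48 and was the largest of the 7 genes in 11 of 12 mice. For Gabrd the log2 difference between SC_SYN and SC_TH lay between 0.86 and 1.94 and was the largest in 8 of 12 mice, while that of Gabra2 was the largest in 2 and the smallest in 5. Each of the 7 genes was higher in SYN in 12 of 12 mice in both comparisons, and the smallest single difference was 0.10 for Gabrb1 on the cushion.

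**Figure D3:**
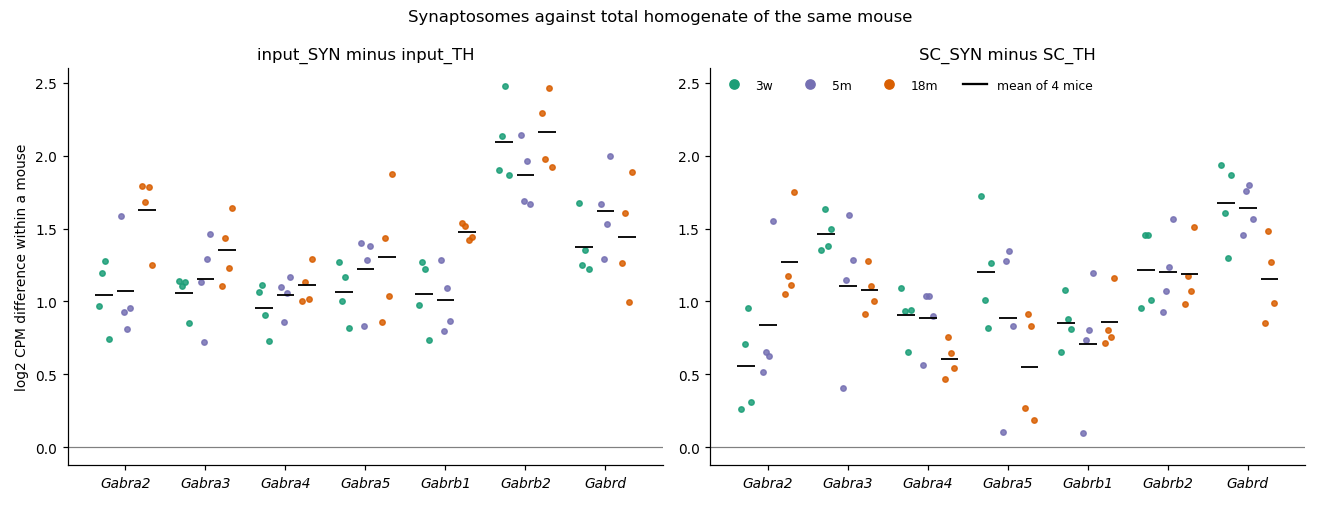
Difference in log2 CPM between synaptosomes and total homogenate of the same mouse, for input RNA (left) and cushion pellets (right). Points are mice, bars the mean of 4 per age; all points lie above 0, with the mean of Gabrb2 highest in input RNA at each age, and on the cushion that of Gabrd highest at 3w and 5m and that of Gabra2 at 18m.

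The scale matters for the size of these differences. Without TMM scaling, by library size alone, the median of all genes moved from -0.17 to -0.77 in input RNA and from -0.08 to -0.63 on the cushion, and the lowest member stood at 0.45 and 0.28. The median of the 7 exceeded that of all genes by 1.40 in input RNA and by 1.03 on the cushion under either scaling, and all 7 were called under both. By library size 3985 genes were called higher and 11972 lower in input RNA, against 6548 and 8464 with TMM, and on the cushion 3667 and 10617 against 6142 and 7034.

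Cell type markers moved with the fractions too. Excitatory neuron markers summed to 2750 to 3640 CPM in input_TH and 8440 to 11400 CPM in input_SYN. Interneuron markers summed to 465 to 633 and 586 to 1130 CPM, with overlap. Oligodendrocyte markers summed to 2100 to 6560 and 3060 to 11500 CPM, and oligodendrocyte precursor markers to 85.7 to 203 and 175 to 588 CPM, also with overlap. From input_TH to input_SYN, all 7 astrocyte markers were higher (summed level 3680 to 5110 CPM against 13200 to 16700), all 6 microglia markers were higher (152 to 186 against 280 to 596), and none was at 0 in any library. All 6 nuclear RNAs were lower (16800 to 19600 CPM against 1720 to 4370), as were all 5 endothelial markers (128 to 200 against 7.19 to 17.6, with up to 2 of the 5 at 0 in a library). Their part in the differences of the 7 genes was not tested, and in such bulk samples a larger share of a cell type or compartment and more RNA in it cannot be told apart.

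The comparison of cushion pellet with input asked how the level of each RNA, relative to the other RNAs of its library, differed between them. It does not give the share of an RNA that sediments with ribosomes. In TH, Gabrb2 was 1.71-fold higher in the pellet (log2 0.77 ± 0.05 SE, adjusted p 1e-14), in 12 of 12 mice, with single differences from 0.35 to 0.97. Gabrd was 1.24-fold higher (0.31 ± 0.06, adjusted p 2.08e-05), in 11 of 12 mice. Gabra2 was 1.12-fold higher (0.16 ± 0.05, adjusted p 0.00666), in 9 of 12 mice, and lost the call by library size (adjusted p 0.0947) and with all 48 libraries in one fit (0.115). In all, 5 of the 7 genes were called, against 75.8% of all 18416 genes tested.

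The remaining calls in TH were small. Gabrb1 was 1.08-fold higher (log2 0.11 ± 0.05 SE, adjusted p 0.0491) and lost the call on leaving out any 1 of mice 188, 189, 191, 193, 196 and 198 (adjusted p 0.0579 to 0.138), with DESeq2 (0.0655), by library size (0.462) and with all 48 libraries (0.217). Gabra3 was lower (log2 -0.12 ± 0.05 SE, adjusted p 0.0432) and lost the call with the mouse as a block (adjusted p 0.0539) and on leaving out any 1 of mice 188, 190, 192, 193, 194, 195 and 196 (0.0742 to 0.128), as it did without the filter on low counts (0.108) and with all 48 libraries (0.0795). Gabra4 (0.02 ± 0.05, adjusted p 0.691) and Gabra5 (0.13 ± 0.07, adjusted p 0.0892) did not pass. These means of the 3 ages hide a change of sign. From 3w to 18m the mean difference within mice went from -0.45 to 0.21 for Gabra3 and from -0.36 to 0.58 for Gabra5. For Gabra4 it went from -0.11 to 0.23 and for Gabrb1 from -0.05 to 0.36.

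In SYN the pattern was another. Gabrd was again higher in the pellet (1.22-fold, log2 0.28 ± 0.09 SE, adjusted p 0.0137), in 9 of 12 mice, and missed the threshold without mouse 190 (adjusted p 0.0507). Gabra4 (log2 -0.25 ± 0.07, adjusted p 0.00366) and Gabrb1 (-0.28 ± 0.08, adjusted p 0.00793) were lower in the pellet, in 11 and 10 of 12 mice, the former not called without the filter (0.0661). Gabrb2 had a log2 difference of -0.11 ± 0.09 (adjusted p 0.373), with 5 mice higher and 7 lower. These 3 calls among 7 genes stand beside 43.2% of 14301 genes called.

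Other genes of the GABA system stood on both sides of this comparison. Of the 23 genes of assembly and scaffold 14 were higher and 5 lower in TH, against 7 higher and 9 lower in SYN, and of the 10 genes of GABA metabolism and chloride 9 were higher in TH and 1 in SYN. Over all genes, 6555 of 18416 were higher and 7397 lower in TH, and 3113 of 14301 higher and 3069 lower in SYN. All 6 nuclear RNAs were lower in the pellet in both compartments, and their part in the values of the 7 genes was not tested.

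**Figure D4:**
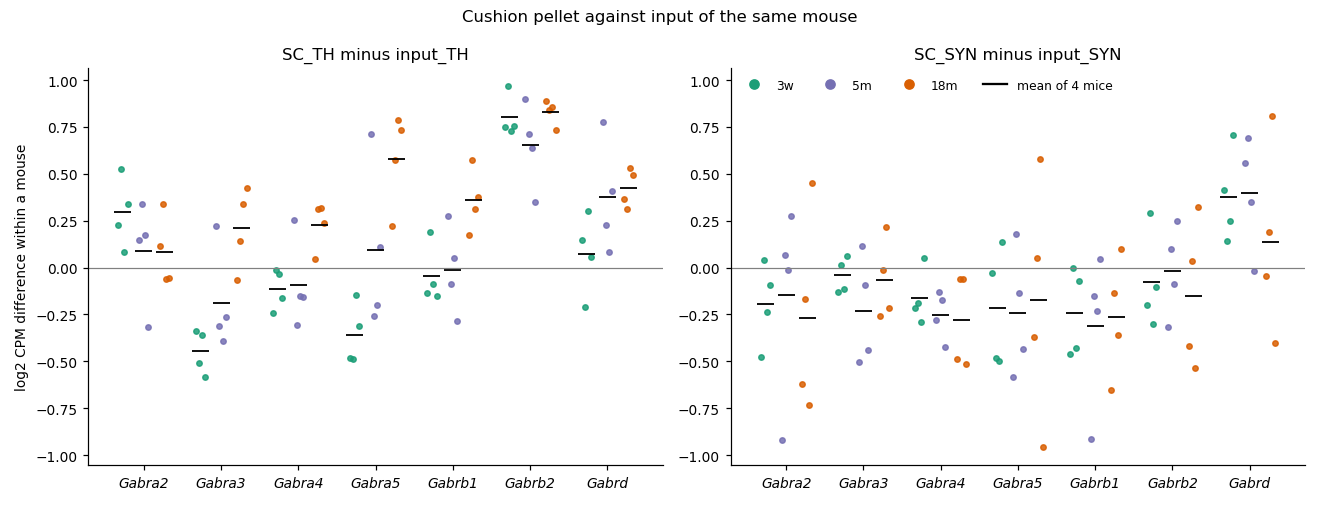
Difference in log2 CPM between cushion pellet and input of the same mouse, in total homogenate (left) and synaptosomes (right). Points are mice, bars the mean of 4 per age; in TH, Gabrb2 is above 0 at all ages, and Gabra3 and Gabra5 lie below 0 at 3w and mostly above 0 at 18m.

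The ages were compared to follow the RNAs from young to adult and old cortex. The clearest change was in SC_TH from 3w to 18m, where Gabra5 and Gabra3 rose and Gabra2 fell. Gabra5, the alpha subunit of mostly extrasynaptic receptors known from hippocampus and deep cortical layers, was at 19.7, 21.4, 24.0 and 25.9 CPM in the 4 mice at 3w, at 27.3, 27.9, 34.0 and 40.8 CPM at 5m and at 34.5, 34.8, 40.6 and 43.3 CPM at 18m. All 5m and 18m libraries lay above all 3w libraries, and 5m and 18m overlapped. The rise from 3w to 18m was 1.70-fold (log2 0.77 ± 0.14 SE, adjusted p 0.000465), and that from 3w to 5m was 1.44-fold (0.53 ± 0.14, adjusted p 0.0165). The earlier step missed the threshold on leaving out any 1 of mice 187, 188, 191 and 194 (adjusted p 0.0504 to 0.0645), while the change from 3w to 18m was called with each mouse left out.

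Gabra3 was at 31.8, 33.9, 37.1 and 37.2 CPM in SC_TH at 3w, between 38.6 and 52.7 CPM at 5m, and at 43.4, 47.0, 48.8 and 54.5 CPM at 18m. The 3w libraries did not overlap the others. It rose 1.40-fold from 3w to 18m (log2 0.48 ± 0.11 SE, adjusted p 0.00256), and its difference at 5m (0.32 ± 0.11) did not pass (adjusted p 0.0549). Gabra2, an alpha subunit of synaptic receptors that is enriched at the axon initial segment, was at 52.2, 59.4, 61.2 and 66.0 CPM at 3w, between 43.6 and 63.2 CPM at 5m, and at 41.1, 41.5, 42.0 and 46.6 CPM at 18m. It fell by 0.46 on the log2 scale (SE 0.10, adjusted p 0.0023) from 3w to 18m, with no overlap between these ages.

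From 3w to 18m, 3 of the 7 genes were thus called in SC_TH, against 40.5% of 16427 genes. From 3w to 5m it was 1 of 7, against 17.9%. From 5m to 18m edgeR called 0 of 7, against 2.17% of all genes, with 2 of 7 at an unadjusted p under 0.05 and 0 called by DESeq2. The change from 3w to 18m was added to the planned steps after the values of both steps had been seen. Gabra4, Gabrb1, Gabrb2 and Gabrd were not called at any of these steps in SC_TH.

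The ratio of Gabra5 to Gabra2 per kb, taken within a library and so independent of scaling, was 0.851, 0.834, 1.27 and 1.01 in SC_TH at 3w. It was 2.16, 1.11, 1.39 and 2.01 at 5m and 2.11, 1.92, 2.68 and 2.53 at 18m. In input_TH of the same mice the means were 1.54 ± 0.127 (SD, n = 4) at 3w, 1.61 ± 0.163 at 5m and 1.64 ± 0.230 at 18m. As a share of the 4 alpha genes together, per kb, Gabra2 made up 22.6% ± 2.67 (SD, n = 4) of the SC_TH level at 3w, 18.0% ± 3.70 at 5m and 13.6% ± 1.55 at 18m. The pellet ratios at 18m were all above those at 3w, whereas in input_TH the 3 ages overlapped, and the ratio was chosen after the values of both genes were seen.

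**Figure D5:**
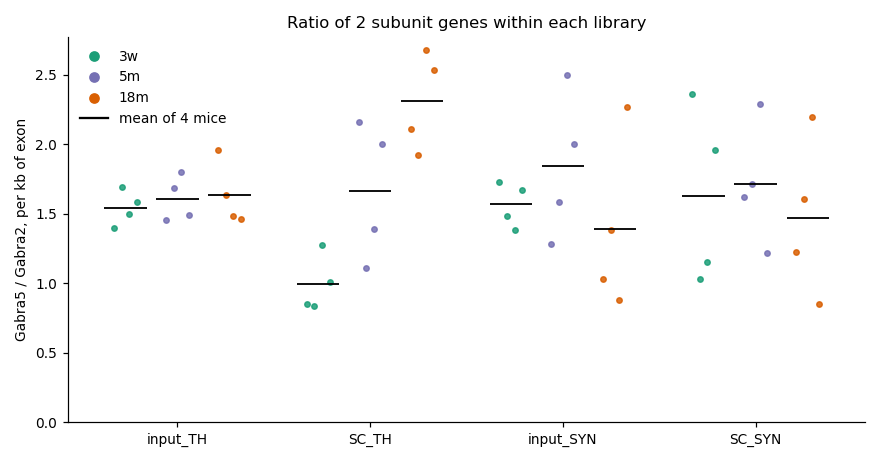
Ratio of Gabra5 to Gabra2 per kb of exon within each library (axis from 0), by fraction and age. Each point is 1 mouse and each bar the mean of 4; in SC_TH the ratio averages 0.991 at 3w, 1.67 at 5m and 2.31 at 18m, and in the other fractions the ages overlap.

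In input_TH all calls for the 7 genes were downward. Gabra2 was at 45.8 to 50.7 CPM at 3w, 43.8 to 54.3 CPM at 5m and 36.7 to 43.4 CPM at 18m. From 5m to 18m, Gabra2 (log2 -0.26 ± 0.07 SE, adjusted p 0.023), Gabra3 (-0.23 ± 0.07, adjusted p 0.0328) and Gabrb1 (-0.28 ± 0.08, adjusted p 0.0343) fell, 3 of 7 against 15.5% of 18078 genes. Gabra5 differed by -0.24 ± 0.09 and did not pass (adjusted p 0.0758). All 3 calls were lost without mouse 192, 194 or 196 (adjusted p 0.0647 to 0.107), those of Gabra3 and Gabrb1 also without 193 or 198, with all 48 libraries in one fit 0 were called, and with only the 5m and 18m libraries Gabra2 alone was.

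From 3w to 5m in input_TH, 1 of 7 genes was called (11.8% of all genes). This was Gabrd, which fell by 0.26 (SE 0.08, adjusted p 0.0437), from 33.3, 36.6, 38.0 and 39.2 CPM to 25.8, 30.5, 31.5 and 34.8 CPM with overlap, and which was not called on leaving out any 1 of mice 188, 189, 190, 191, 192 and 194 (adjusted p 0.0733 to 0.121) or by library size (0.0816), with all 48 libraries (0.407) or with only these 2 ages (0.0572). From 3w to 18m, 2 of 7 were called (21.4% of all genes), Gabra2 (log2 -0.27 ± 0.07 SE, adjusted p 0.0137) and Gabra4 (-0.29 ± 0.08, adjusted p 0.0109), and neither was called with all 48 libraries (adjusted p 0.345 and 0.0829). Gabra4, the alpha subunit that pairs with delta in the forebrain, was at 64.4, 66.4, 68.0 and 70.3 CPM at 3w and at 49.9, 52.5, 57.8 and 59.7 CPM at 18m, without overlap.

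Whether the age change differs between pellet and input was tested as an interaction. From 3w to 18m the log2 change was larger in SC_TH than in input_TH by 0.93 ± 0.17 SE for Gabra5 (adjusted p 0.000647), by 0.65 ± 0.13 for Gabra3 (adjusted p 0.0017) and by 0.39 ± 0.12 for Gabrb1 (adjusted p 0.0246), 3 of 7 genes against 17.8% of 18416. For Gabra5 the difference between pellet and input of a mouse averaged -0.36 ± 0.16 (SD, n = 4) at 3w, 0.09 ± 0.44 at 5m and 0.58 ± 0.26 at 18m, below 0 in 4 of 4 mice at 3w and above 0 in 4 of 4 at 18m. For Gabra3 it averaged -0.45 ± 0.12, -0.19 ± 0.28 and 0.21 ± 0.22. Gabrb1 lost the call on leaving out any 1 of mice 187, 190, 196 and 198 (adjusted p 0.0568 to 0.0821), and Gabra4 (0.33 ± 0.12, adjusted p 0.0653) gained it with the mouse as a block (0.0479). For the fall of Gabra2 in SC_TH no such difference was called (-0.21 ± 0.13, adjusted p 0.262).

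At the single steps edgeR and DESeq2 called 0 of 7 interactions of SC_TH with input_TH, against 2.33% of genes from 3w to 5m and 1.78% from 5m to 18m, with 1 and 4 of the 7 at an unadjusted p under 0.05. Without mouse 191, Gabra3, Gabra4, Gabra5 and Gabrb1 were called from 5m to 18m (adjusted p 0.00396 to 0.0268).

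In input_TH, 7 oligodendrocyte markers summed to 5290 to 6560 CPM at 3w, 2100 to 2380 at 5m and 2390 to 2780 at 18m, and 8 interneuron markers to 465 to 517, 470 to 512 and 556 to 633 CPM. Their part in the changes of Gabra2, Gabra3, Gabra4, Gabrb1 and Gabrd in input_TH was not tested. Other RNAs of SC_TH moved with age as well. The summed level of 6 nuclear RNAs was 10500 to 13900 CPM at 3w, 7580 to 11200 at 5m and 5390 to 6440 at 18m, and 5 of the 6 fell from 3w to 18m. The 8 interneuron markers summed to 523 to 617, 617 to 818 and 826 to 972 CPM, and 7 of the 8 rose. All 7 oligodendrocyte markers fell (3940 to 4810 CPM at 3w, 2000 to 2450 at 18m), and none of the markers of these lists was at 0. Together with the rise in depth of these libraries, their part in the changes of Gabra2, Gabra3 and Gabra5 was not tested.

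In SYN no age change was called for any of the 7 genes. From 3w to 18m, edgeR and DESeq2 called 0 of 7 in input_SYN (4.81% of 12975 genes called by edgeR) and 0 of 7 in SC_SYN (9.92% of 14240), and 0 of 7 had an unadjusted p under 0.05 in either fraction. The log2 differences lay between -0.18 and 0.28 in input_SYN, with SEs of 0.11 to 0.16, and between -0.30 and 0.23 in SC_SYN, with SEs of 0.12 to 0.20. Changes as small as those called in input_TH were not detectable with these errors. The single steps likewise gave 0 of 7, against 3.22% and 0.139% of genes in input_SYN and 8.05% and 0.014% in SC_SYN from 3w to 5m and from 5m to 18m.

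In SC_SYN, Gabra5 was at 43.4 to 65.5 CPM at 3w, 43.9 to 71.2 CPM at 5m and 41.7 to 77.3 CPM at 18m, so the 4 mice of an age spread more widely than the ages. Gabrd was at 103 to 142 CPM at 3w, 122 to 129 CPM at 5m and 79.6 to 124 CPM at 18m (18m against 3w -0.30 ± 0.15, adjusted p 0.221). The difference between the age changes of SC_SYN and SC_TH from 3w to 18m was 0.70 ± 0.23 SE for Gabra2 and -0.65 ± 0.26 for Gabra5, and neither passed (adjusted p 0.0583 and 0.117). Of the 7 genes, edgeR called 0 (8.06% of 16630 genes) and DESeq2 called 1 (Gabra2, adjusted p 0.0386), with 4 at an unadjusted p under 0.05. At the steps from 3w to 5m and from 5m to 18m, edgeR and DESeq2 called 0 of 7 (0.0301% and 0% of all genes), with 0 and 1 at an unadjusted p under 0.05.

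For the input RNA of SYN against TH, edgeR called 0 of 7 age interactions at each step and from 3w to 18m. From 5m to 18m it called 2.42% of 17860 genes, 2 of the 7 had an unadjusted p under 0.05, and DESeq2 called those 2, Gabra2 and Gabrb1. From 3w to 5m and from 3w to 18m the shares over all genes were 0.0224% and 0.325%. With the mouse as a block, Gabrb1 passed (0.47 on the log2 scale, adjusted p 0.0368, against 0.0869 without it). For SC_SYN against input_SYN, 0 of 7 age interactions were called by either tool, 0 had an unadjusted p under 0.05, and 0% of 14301 genes were called.

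Among the other subunits of the receptor, Gabra6, Gabrp, Gabrr1, Gabrr2 and Gabrr3 had at most 10 reads in any library. All 7 that were tested were higher in SYN than in TH in both comparisons, against 36.7% of all genes in input RNA and 36.9% on the cushion. In input_TH from 3w to 18m, Gabrg3, a gamma subunit, fell by 0.40 on the log2 scale (SE 0.09, adjusted p 0.00472).

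Among 23 genes of receptor assembly, trafficking and the inhibitory scaffold, 20 were higher and 1 lower in SYN as input RNA, and 14 were higher and 6 lower on the cushion. Clptm1, which retains subunits in the endoplasmic reticulum, was 2.60-fold higher on the cushion, and Nlgn2, the neuroligin of inhibitory synapses, was 3.83-fold higher in input RNA. Of 10 genes of GABA synthesis, transport, breakdown and the chloride gradient, 7 were higher and 2 lower in SYN in both comparisons, among them Slc12a5, the chloride exporter KCC2 (3.98-fold and 3.00-fold higher). Of 5 genes of the GABA-B receptor 3 were higher and 2 lower, with Gabbr1 at 3.20-fold in input RNA and 2.55-fold on the cushion. Over all genes, 6548 of 17860 were called higher and 8464 lower in SYN as input RNA. On the cushion 6142 of 16630 were called higher and 7034 lower. In SC_TH from 3w to 18m, 6 of the 10 genes of GABA metabolism and chloride rose and 1 fell, with Gad1, a GABA-synthesizing enzyme, at 1.78-fold (adjusted p 1.34e-05). Over all 16427 genes tested there, 3329 rose and 3319 fell.

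The genes with the pattern most like each member were found by Pearson's r of mean log2 CPM over the 12 groups among 10553 protein-coding genes. They were Rassf8 and Rab22a for Gabra2 (r 0.985 and 0.981), Atp8a1 and Gpr155 for Gabra3 (0.991 and 0.990), Mgat5 and Cbln2 for Gabra4 (0.993 and 0.991), and Maneal and Nceh1 for Gabra5 (0.988 and 0.984). For Gabrb1 they were Zdhhc17 and Tmem184c (0.996 and 0.993), for Gabrb2 Slc17a6 and Emc7 (both 0.997), and for Gabrd Abca3 and Lrig1 (both 0.996). The 12 groups come from the same 12 mice and share the difference between SYN and TH, so the values are a description. Between members, r over the 12 groups was lowest for Gabra2 with Gabra5 (0.879) and highest for Gabra3 with Gabra5 (0.973).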

How the data were processed

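After rRNA depletion the authors built directional libraries carrying UMIs, aligned them to GRCm38 (the submitters' processing notes name bcl2fastq 2.20.0.422 and TopHat2 2.1) and counted reads per gene with featureCounts, ignoring strand. The deposited table holds these raw read counts for 48526 genes in 48 libraries, not normalized. Whether duplicates were removed by UMI is not given in the sources used here. GENCODE M21 holds 48144 of the identifiers, and promoter windows on chromosome 18 were left out.

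The tests used the quasi-likelihood functions of edgeR 4.0.16 in R 4.3.3, after filterByExpr and TMM, with Benjamini-Hochberg adjustment over all genes tested and a threshold of 0.05. Age steps were fitted in 12 libraries per fraction, comparisons of fractions (mean of 3 ages) and interactions in 24. Levels use TMM over all 48. Depth differed between libraries, and its part in the precision was not tested. For 72 pairs of libraries within a group, chi-square per degree of freedom over genes was taken after scaling to total counts. It was 1.98 to 32.2 times the value for counting error alone. The same pairs of mice recur in the 4 fractions.

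The 4 libraries with a number come from 1 mouse. Their deviations from group means correlated with medians of -0.01 to 0.111 for the pairs of fractions. Alternatives were the mouse as a block, DESeq2 1.42.0, scaling by library size, all genes without a filter, other sets of libraries, and each mouse left out. The code was tested on simulated counts. Members and gene lists were chosen with earlier results of these data known. Beyond the 7 members, at most the 2 largest changes per list with a mean of at least 50 counts, and the 2 genes most like each member, are named. Other assays of the study are not analysed here. Some genes of the lists are not reported here.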

Additional observations from a re-analysis of the deposited data

Results flagged for a closer look

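In 5 of 84 combinations of a gene and a group of 4 mice, 1 library lay far from the other 3 by Dixon's criterion. Chance gives about 4.2, and the combinations share libraries and so are not independent. In SC_TH at 18m, mouse 197 was high for Gabra4 (74.4 CPM against 59.8 to 62.0, a gap of 0.847 of the range) and for Gabrd (51.0 against 42.9 to 43.9, 0.875). In input_TH at 5m, mouse 191 was low for Gabra5 (24.8 CPM against 31.5 to 32.7, 0.841) and for Gabrb2 (91.4 against 111 to 114, 0.897). In SC_SYN at 18m, mouse 198 was high for Gabrb2 (476 CPM against 388 to 396, 0.907).

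The age change from 3w to 18m differed between SC_TH and input_TH by 0.93 on the log2 scale for Gabra5, 0.65 for Gabra3 and 0.39 for Gabrb1, each past the threshold of edgeR's interaction test.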

How the results depend on the processing

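Across 35 called combinations of gene and comparison, 0 reversed their direction under any alternative. All 7 genes were called higher in SYN under every alternative, in input RNA and on the cushion, with log2 differences of at least 0.28. In SC_TH from 3w to 18m, Gabra2, Gabra3 and Gabra5 were called under all 13 alternatives each. Of 161 combinations that were not called, 22 were called under at least 1 alternative and 21 changed sign under a setting other than leaving out a mouse.

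The number of genes called among the 7 moved as follows, and the cause was not tested. With all 48 libraries in one fit it was 2 for SC_TH against input_TH and 0 in input_TH for the steps to 5m and 18m and for 3w to 18m, where calls over all genes fell from 2136 to 761, from 2808 to 183 and from 3873 to 1256. With only the 2 ages compared it was 0 in input_TH from 3w to 5m and 1 from 5m to 18m. By library size it was 3 for SC_TH against input_TH, 0 in input_TH from 3w to 5m, and 1 for the interaction of input_SYN with input_TH from 5m to 18m. Without the filter it was 2 in SC_TH from 3w to 5m, 5 and 1 for the interactions of SC_TH with input_TH from 3w to 18m and from 3w to 5m, 2 and 1 for those of input_SYN with input_TH from 5m to 18m and from 3w to 18m, and 1 for SC_SYN with SC_TH from 3w to 18m. Calls over all genes differed without the filter as well, for example 1303 against 429 for the interaction of SC_TH with input_TH from 3w to 5m. DESeq2 called 2 for the interaction of input_SYN with input_TH from 5m to 18m and 1 for SC_SYN with SC_TH from 3w to 18m, 3 in place of 2 in input_TH from 3w to 18m (Gabrb1 added), and 4 in place of 5 for SC_TH against input_TH. With the mouse as a block it was 1 for the interaction of input_SYN with input_TH from 5m to 18m, and the only other calls that changed were those of Gabra3 and Gabra4 given above.

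With 1 mouse left out, the number ranged in input_TH from 0 to 1 (3w to 5m), from 0 to 4 (5m to 18m) and from 2 to 5 (3w to 18m), and in SC_TH from 0 to 3 (3w to 5m). It ranged from 3 to 5 for SC_TH against input_TH, from 0 to 4 and from 0 to 1 for the interactions of SC_TH with input_TH from 5m to 18m and from 3w to 5m, and from 0 to 1 for those of SC_SYN with SC_TH (3w to 18m) and of input_SYN with input_TH (5m to 18m). Comparisons from 3w to 18m were added after the data were seen. The SEs of age changes were up to 0.16 on the log2 scale in input_SYN, which had the lowest median depth, and up to 0.20 in SC_SYN.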
